A study of Mus musculus with 24 samples.

Results

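The genes described here are 39 genes of cholesterol and fatty acid synthesis, taken by symbol: 18 enzymes of sterol synthesis, 6 genes of sterol sensing and transport, 10 genes of fatty acid synthesis, and 5 targets or receptors of the LXR pathway. A probe was assigned to a gene through the transcript accession printed on the array, and 38 of the 39 genes had a probe. Idi1, a sterol pathway isomerase, was not matched and is not analysed here. All 38 passed the filter on dim probes, among 22387 genes tested. Of these 22387, 13725 had a gene symbol. The rest stand under the accession of their probe and count as genes in every share over all genes. They had 59 probes, of which 56 passed the filter, and the brightest probe of each gene was used.

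The cells were R1, a mouse embryonic stem (ES) cell line, infected with lentivirus carrying a short hairpin RNA. The control group carried shNTC, a non-targeting hairpin. Cdk8, the kinase of the Mediator kinase module, was targeted by shCdk8-1 or shCdk8-2, and Med12, the subunit that activates that kinase, by shMed12-1 or shMed12-2. Cells were collected 8 days after infection (shNTC, shCdk8-1 and shCdk8-2) or 13 days after it (all 5 hairpins), with 3 biological replicates in each of the 8 groups. The labels do not say whether replicates were separate infections, and p-values cover the spread from array to array alone, which may be technical. All groups were infected cells of 1 line, and uninfected cells are not analysed here. On every array the cells were labelled with Cy5 and a universal reference RNA, made from several mouse cell lines, with Cy3, and dyes were not swapped. Each value is a log2 ratio of cells over reference, so levels are compared between groups and not between genes. In these bulk samples, fewer cells of one type and less RNA per cell cannot be told apart.

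As background, cells sense membrane sterols in the endoplasmic reticulum, where SCAP carries the SREBP transcription factors and INSIG proteins retain them there when sterols are plentiful. When sterols fall, SREBP2 reaches the nucleus and raises the enzymes that turn acetyl-CoA through mevalonate, farnesyl diphosphate and squalene into cholesterol, while SREBP1 mainly drives fatty acid synthesis. LXR nuclear receptors respond to oxidised sterols and raise genes of sterol export such as Abca1 and Abcg1. CDK8 is known to phosphorylate nuclear SREBP1, which marks it for degradation.

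RefSeq promoter entries (GRCm38.p6) were found for 31 of the 39 genes. Those of 3 sterol enzymes are shown here, picked because each was called higher with both Med12 hairpins. Each line gives the 250 bases before the annotated start, 5′ to 3′ on the strand of the gene: Hmgcs1 at chr13:119690101-119690350 on the plus strand, Msmo1 at chr8:64733579-64733828 on the minus strand, and Sc5d at chr9:42264301-42264550 on the minus strand. Capitals mark a sterol regulatory element (TCACNCCAC), the binding sequence of SREBP, an NF-Y box (CCAAT, printed as ATTGG where it lies on the other strand), and an E-box (CACGTG).
Hmgcs1: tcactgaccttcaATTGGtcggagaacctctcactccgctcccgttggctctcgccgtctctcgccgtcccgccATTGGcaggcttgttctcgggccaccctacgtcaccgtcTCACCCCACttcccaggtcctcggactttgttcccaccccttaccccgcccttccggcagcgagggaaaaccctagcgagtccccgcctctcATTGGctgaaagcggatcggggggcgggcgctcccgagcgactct
Msmo1: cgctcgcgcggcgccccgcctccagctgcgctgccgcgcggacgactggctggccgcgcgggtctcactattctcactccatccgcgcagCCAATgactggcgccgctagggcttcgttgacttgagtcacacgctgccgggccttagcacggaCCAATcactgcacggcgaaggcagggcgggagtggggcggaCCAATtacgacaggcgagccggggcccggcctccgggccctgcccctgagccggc
Sc5d: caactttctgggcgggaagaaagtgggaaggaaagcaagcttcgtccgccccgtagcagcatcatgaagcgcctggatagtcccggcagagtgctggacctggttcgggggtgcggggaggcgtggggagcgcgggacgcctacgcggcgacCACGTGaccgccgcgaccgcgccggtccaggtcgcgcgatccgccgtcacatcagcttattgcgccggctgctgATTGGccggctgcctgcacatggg
Both strands were searched, and no marked match overlaps another in these 3 windows. Hmgcs1 held the sterol regulatory element 137 bases before its start. It was the single one of the 31 members with an entry to hold it (3.23%, against 1.22% of all genes with an entry). Of all 32851 promoters of this length, 1.05% held it. The NF-Y box, bound by a factor that acts beside SREBP, was in 14 of 15 sterol enzyme genes with an entry (93.3%) and in 3 of 7 fatty acid genes (42.9%), against 37.5% of all genes with an entry. The E-box was in 3 of the 15 sterol enzyme genes (20%), against 6.86% of all genes. The SP1 box (GGGCGG) was in 14 of the 15 sterol enzyme genes, against 35.4% of all genes. The LXR element, a direct repeat spaced by 4 bases, was in none of the 4 LXR pathway genes with an entry, against 0.0148% of all genes. A match describes the letters in this window and is not a binding site.

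The targeted genes fell in the groups labelled with their hairpins. Cdk8 fell by 0.71 (shCdk8-1) and by 0.31 (shCdk8-2) on day 8 and by 0.95 and 0.64 on day 13 on the log2 scale, and Med12 fell by 1.0 (shMed12-1) and by 0.88 (shMed12-2), with adjusted p (limma) from 9.45e-09 to 0.00747. In day 8 cells, Med12 was 0.25 (shCdk8-1) and 0.34 (shCdk8-2) above shNTC. Between 48.9% and 76.1% of spots were well above background on each array. The ES cell list (10 markers) had mean ratios of 5.57 to 5.65 on the shNTC day 8 arrays, and all 10 were above background in every group. Some genes of each marker list were called. With both Med12 hairpins, 4 of 10 fibroblast genes and 2 of 6 trophoblast genes were higher. Lower were 4 of 10 primitive endoderm genes, 1 of 10 ES cell genes and 1 of 8 neural progenitor genes. Over all genes, 4.79% were higher and 3.82% lower with both Med12 hairpins. With both Cdk8 hairpins, 5 (day 8) and 4 (day 13) primitive endoderm genes were lower, and 2 fibroblast genes were lower on day 8 and 3 higher on day 13. With the same hairpins 1 neural progenitor gene was higher on each day, and on day 13 1 trophoblast gene was higher and 1 ES cell gene lower. Over all genes, 2.78% were higher and 2.32% lower with both Cdk8 hairpins on day 8, and 2.37% and 1.85% on day 13. The ES cell list had mean ratios from 5.49 to 5.61 in shNTC day 13 arrays and from 4.32 to 5.10 in shMed12-1 arrays. The fibroblast list had mean ratios from -4.35 to -3.83 in shNTC day 13 arrays and from -3.80 to -3.07 in shMed12-2 arrays. In shMed12-1 arrays that list ran from -3.465 to -3.365. The trophoblast list had mean ratios from 1.14 to 1.21 in shNTC day 13 and from 1.5 to 2.17 in shMed12-1. On shMed12-2 arrays the ES cell list ran from 5.01 to 5.16 and the trophoblast list from 1.13 to 1.35, which overlaps shNTC. The shMed12-1 ranges include its replicate 3, an array of compressed ratios (given below). The part of these markers in the results was not tested. Ratios were compressed on replicate 1 of shCdk8-1, day 8, and on replicate 3 of shMed12-1, day 13: their slopes on the remaining arrays of their groups were 0.785 and 0.792, against 0.969 to 1.123 on the other 22. Members whose call with both hairpins changes under a refitted background correction are named with it. That correction brought all 24 slopes to between 0.97 and 1.03. All Med12 arrays lay at the same place on their slides and no other group lay there, so place and Med12 knockdown cannot be told apart.

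Few of these genes changed with both hairpins of a target, and those that did were mostly higher. A gene is called changed with both hairpins when each hairpin differed from same-day shNTC in the same direction at an adjusted p under 0.05 (limma, Benjamini-Hochberg over 22387 genes). With Cdk8 knockdown on day 8, Sqle, Msmo1 and Nr1h2 rose and none fell (3 of 38, 7.89%, against 5.1% of all genes, or 2.78% higher and 2.32% lower). On day 13, Sqle rose and Abcg1 fell (2 of 38, 5.26%, against 4.22% of all genes, or 2.37% higher and 1.85% lower). With Med12 knockdown on day 13, Hmgcs1, Sqle, Msmo1, Sc5d, Me1 and Mylip rose and Abcg1 fell (7 of 38, 18.4%, against 8.61% of all genes, or 4.79% higher and 3.82% lower). Both Cdk8 shares lie near the background in this fit. The median change over the 38 genes was 0.062, 0.059 and 0.115 in those 3 comparisons, and the median over all genes was 0.003, 0.003 and 0.001. Single hairpins gave more calls among the 38: 13 with shCdk8-1 (34.2%, against 16.9% of all genes) and 8 with shCdk8-2 (21.1%, against 14%) on day 8, 12 with shCdk8-1 (31.6%, against 12.6%) and 7 with shCdk8-2 (18.4%, against 11.6%) on day 13, 11 with shMed12-1 (28.9%, against 24.9%) and 18 with shMed12-2 (47.4%, against 17.8%).

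By role, the 17 measured sterol enzymes gave 2 rises, 1 rise and 4 rises in these comparisons (11.8%, 5.88% and 23.5%, against 5.1%, 4.22% and 8.61% of all genes), and no falls in this fit. None of the 6 sensing and transport genes was called with both hairpins in this fit, which used the brightest probe (a further Stard4 probe is given below). The 10 fatty acid genes gave 1 call with both hairpins in this fit, the rise of Me1 with Med12 knockdown. The 5 LXR genes gave 1 rise with Cdk8 knockdown on day 8, 1 fall on day 13, and 1 rise and 1 fall with Med12 knockdown. These counts depend on the background correction and on the slide. With the refitted background, 5 members were higher and 2 lower with Cdk8 knockdown on day 8 (18.4%, against 7.76% of all genes). Cyp51 (0.42 with shCdk8-1 and 0.23 with shCdk8-2), Insig1 (0.35 and 0.27) and Fads2 (0.23 and 0.18) were then called higher, Acat2 (-0.29 and -0.26) and Hsd17b7 (-0.20 and -0.35) lower, and Nr1h2 was lost. On day 13 that correction gave 4 higher and 1 lower (13.2%, against 7% of all genes), adding Scap (0.16 and 0.20), Fasn (0.31 and 0.32) and Mylip (0.54 and 0.22). The Med12 count was 6 higher and 1 lower, as without it (18.4%, against 11% of all genes). With the slide as a block, Sqle alone remained on day 8, Sqle and Abcg1 on day 13, and Hmgcs1, Sqle, Sc5d, Mylip and Abcg1 with Med12 knockdown (2.63%, 5.26% and 13.2%, against 1.38%, 1.25% and 3.16% of all genes).

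**Figure D1:**
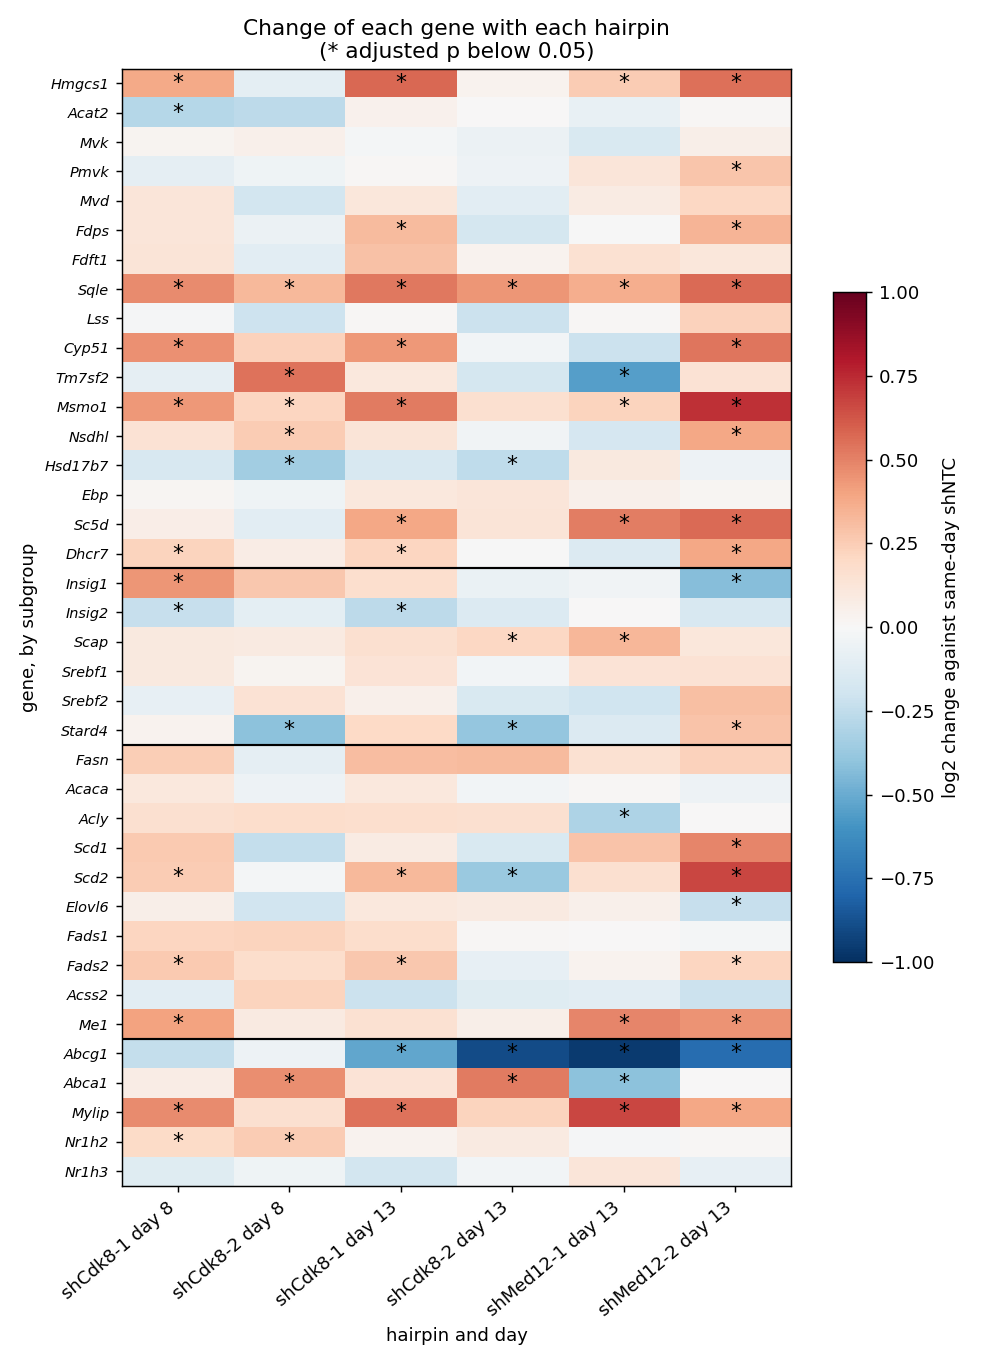
Log2 change of each of the 38 measured genes (rows, by subgroup: sterol enzymes, sensing and transport, fatty acid synthesis, LXR pathway) with each hairpin against same-day shNTC (columns), on a colour scale from -1 to 1, with an asterisk where the adjusted p was under 0.05. Sqle is marked in all 6 columns, and the sterol enzyme block has most marks under shCdk8-1 and shMed12-2.

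Sqle, squalene epoxidase, which makes the first oxygenated sterol precursor, was higher with every Cdk8 and Med12 hairpin. On day 8 its ratios were -1.10, -1.08 and -1.15 in shNTC, -0.53, -0.68 and -0.71 in shCdk8-1 and -0.85, -0.74 and -0.76 in shCdk8-2. On day 13 they were -1.0, -1.0 and -0.98 in shNTC, -0.48, -0.48 and -0.44 in shCdk8-1, -0.66, -0.58 and -0.42 in shCdk8-2, -0.62, -0.67 and -0.59 in shMed12-1, and -0.44, -0.52 and -0.32 in shMed12-2. All 18 knockdown arrays lay above all shNTC arrays of their day. The mean change over both hairpins was 0.40 ± 0.05 (SE) for Cdk8 on day 8, 0.48 ± 0.05 for Cdk8 on day 13 and 0.47 ± 0.05 for Med12, or 1.32-fold, 1.40-fold and 1.38-fold, with adjusted p (limma) of 3.43e-05, 5.03e-06 and 2.03e-06. These changes were 0.44, 0.53 and 0.51 with the slide as a block. Within single slides, shCdk8-2 exceeded shNTC by 0.33 (day 8) and 0.58 (day 13), and shMed12-2 exceeded it by 0.56 and 0.46. The shCdk8-1 and shMed12-1 arrays never shared a slide with same-day shNTC, so their changes have no such comparison. Cdk8 minus Med12 on day 13 was 0.01 for Sqle (95% interval -0.08 to 0.11).

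Msmo1, the methylsterol oxidase that removes methyl groups from lanosterol derivatives, rose with both hairpins on day 8 and with both Med12 hairpins. Its ratios on day 8 were -1.78, -1.77 and -1.84 in shNTC, -1.34, -1.46 and -1.28 in shCdk8-1 and -1.48, -1.64 and -1.62 in shCdk8-2. On day 13 they were -1.57, -1.53 and -1.55 in shNTC, -0.86, -1.13 and -1.10 in shCdk8-1, -1.35, -1.35 and -1.45 in shCdk8-2, -1.34, -1.34 and -1.31 in shMed12-1, and -0.78, -0.86 and -0.81 in shMed12-2. No knockdown array overlapped same-day shNTC. The mean changes were 0.33 ± 0.06 (SE), 0.34 ± 0.06 and 0.48 ± 0.06, and on day 13 the shCdk8-2 change of 0.16 did not pass (adjusted p = 0.119, limma). The day 8 call was lost without any 1 of the 3 shNTC day 8 arrays or without shCdk8-2 day 8 replicate 1 (mean change 0.33, 0.34, 0.30 and 0.30), and with the slide as a block (0.39, adjusted p = 0.109 for the weaker hairpin). The Med12 call was lost without shNTC day 13 replicate 1 (0.47) or shMed12-1 day 13 replicate 3 (0.47), and with the slide as a block (0.51, adjusted p = 0.0658). Cy5 alone ended the day 8 call (adjusted p = 0.161) and the Med12 call (adjusted p = 0.159, limma), as did median centring. The day 8 call was also lost with the Feature Extraction log ratio, with no filter on dim probes and with only the groups compared. Of 25 alternatives, 15 kept the day 8 call and 20 the Med12 call.

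Hmgcs1, the cytosolic HMG-CoA synthase at the entry of the pathway, followed the hairpin. Its day 8 ratios were -0.49, -0.62 and -0.53 in shNTC, -0.11, -0.28 and -0.12 in shCdk8-1 and -0.67, -0.68 and -0.60 in shCdk8-2. On day 13 they were -0.41, -0.40 and -0.37 in shNTC, 0.30, 0.15 and 0.08 in shCdk8-1, -0.36, -0.39 and -0.33 in shCdk8-2, -0.16, -0.21 and -0.05 in shMed12-1, and 0.19, 0.13 and 0.15 in shMed12-2. The shCdk8-1 arrays lay above shNTC on both days, the shCdk8-2 arrays overlapped shNTC on both days, and both Med12 groups lay above. It rose by 0.38 and 0.57 with shCdk8-1 on day 8 and day 13, where a second, much dimmer probe gave 0.00 and 0.40 without a call. The Med12 changes were 0.25 with shMed12-1 and 0.55 with shMed12-2 (adjusted p 0.00437 and 1.3e-06, limma), and 0.37 and 0.54 with the slide as a block. That dimmer probe gave a mean Med12 change of 0.09 (adjusted p = 0.649), and the mean of both probes gave 0.24, which was not called (adjusted p = 0.211, limma).

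Sc5d, the sterol desaturase near the end of the pathway, rose with both Med12 hairpins and, on day 13, with shCdk8-1. Its day 8 ratios were -0.95, -0.85 and -0.92 in shNTC, -0.76, -0.89 and -0.87 in shCdk8-1 and -0.96, -1.07 and -1.0 in shCdk8-2. On day 13 they were -0.78, -0.75 and -0.66 in shNTC, -0.29, -0.34 and -0.39 in shCdk8-1, -0.58, -0.60 and -0.63 in shCdk8-2, -0.22, -0.26 and -0.18 in shMed12-1, and -0.18, -0.15 and -0.16 in shMed12-2. All day 13 knockdown arrays lay above shNTC, with the Med12 arrays highest. The changes were 0.51 and 0.57 with the Med12 hairpins (1.42-fold and 1.48-fold, adjusted p 1.92e-07 and 5.22e-08, limma), and 0.39 and 0.13 with shCdk8-1 and shCdk8-2, the second not called (adjusted p = 0.106). The mean Cdk8 change was -0.02 on day 8 and 0.26 on day 13, a difference of 0.27 ± 0.06 (SE, adjusted p = 0.0153, limma). Sc5d and Abcg1 were the 2 of 38 genes (5.26%, against 2.37% of all genes) whose Cdk8 change differed between days. The Sc5d difference was not called without shNTC day 8 replicate 2 (0.25), shNTC day 13 replicate 1 (0.25) or replicate 2 (0.26), or with the slide as a block (0.24, adjusted p = 0.123).

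**Figure D2:**
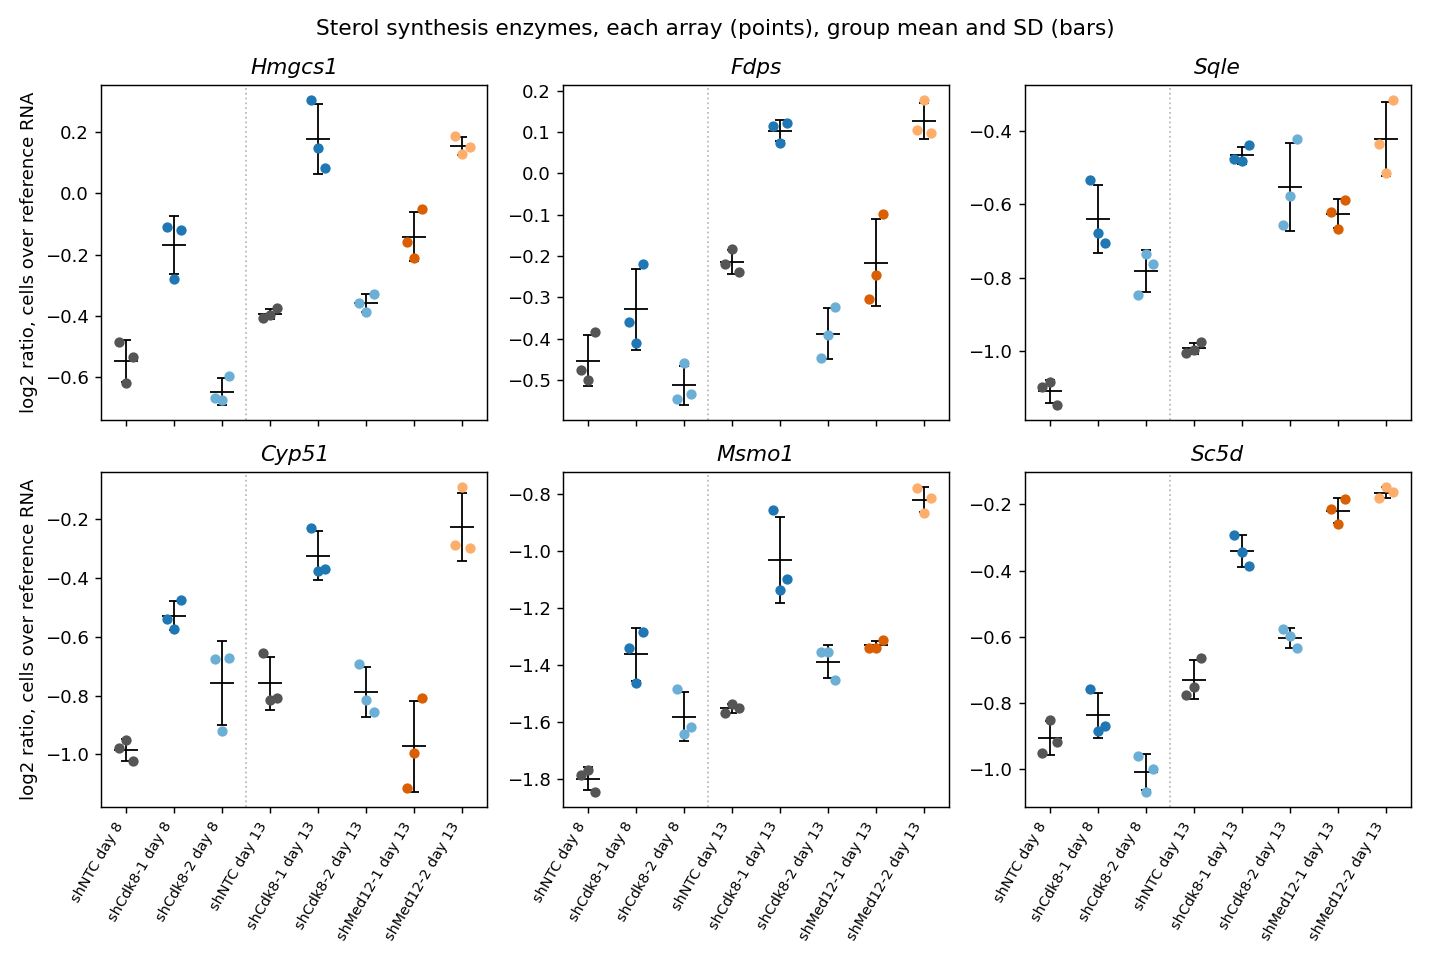
Log2 ratio of cells over reference RNA (vertical axis, a separate scale for each gene) on every array (points) of the 8 groups (horizontal axis), with group mean and SD as bars, for 6 sterol enzymes in pathway order. Sqle is above shNTC in every knockdown group, while on day 13 Hmgcs1, Fdps, Cyp51 and Msmo1 are highest in shCdk8-1 and shMed12-2.

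The hairpins of a target differed from each other in many of these genes. On day 13, 7 of 17 sterol enzymes were higher with shCdk8-1 than with shCdk8-2 and none lower, against 6.13% of all genes higher and 5.55% lower. On day 8, 5 were higher (Hmgcs1, Mvd, Fdps, Msmo1 and Sc5d) and 1 lower (Tm7sf2), against 8.58% of all genes higher and 9.17% lower. With Med12, 9 of 17 were higher with shMed12-2 than with shMed12-1 and none lower, against 10.3% of all genes higher with shMed12-2 and 11.2% lower. With the slide as a block, the sterol enzyme counts were 1 higher and 1 lower (Cdk8, day 8), 5 higher (Cdk8, day 13) and 6 lower (Med12, shMed12-1 minus shMed12-2), where 2.69%, 5.61% and 6.19% of all genes differed in either direction. Over all 38 genes, 14, 14 and 19 differed between hairpins (36.8%, 36.8% and 50%), against 17.8%, 11.7% and 21.5% of all genes.

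Fdps, farnesyl diphosphate synthase, differed between hairpins on both days. Its day 13 ratios were -0.22, -0.18 and -0.24 in shNTC, 0.11, 0.07 and 0.12 in shCdk8-1, -0.45, -0.39 and -0.32 in shCdk8-2, -0.30, -0.25 and -0.10 in shMed12-1, and 0.10, 0.18 and 0.10 in shMed12-2. The shCdk8-1 and shMed12-2 arrays lay above shNTC, the shCdk8-2 arrays lay below it and the shMed12-1 arrays overlapped it. shCdk8-1 exceeded shCdk8-2 by 0.49 (95% interval 0.37 to 0.61), and shMed12-1 minus shMed12-2 was -0.34 (-0.46 to -0.22). The slide as a block gave differences of 0.60 (adjusted p = 0.00145) and -0.28 (adjusted p = 0.086, limma).

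Cyp51, lanosterol demethylase, had day 13 ratios of -0.65, -0.81 and -0.81 in shNTC, -0.23, -0.38 and -0.37 in shCdk8-1, -0.69, -0.82 and -0.85 in shCdk8-2, -1.12, -0.99 and -0.81 in shMed12-1, and -0.29, -0.09 and -0.30 in shMed12-2. The shCdk8-1 and shMed12-2 arrays stood above all the others, and shMed12-1 was the lowest group. shMed12-1 minus shMed12-2 was -0.75 (95% interval -0.92 to -0.57), and -0.70 with the slide as a block (adjusted p = 0.0065, limma). Of the 2 further Cyp51 probes, the dimmest gave 0.28 with shMed12-1 where the brightest gave -0.21, and neither value was called (the middle probe gave 0.02), while all 3 gave 0.53 to 0.65 with shMed12-2. With shCdk8-1 on day 13 the brightest probe gave 0.43 and the middle one 0.38, both called, and the dimmest 0.33, not called.

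Scd2, a stearoyl-CoA desaturase that makes monounsaturated fatty acids, moved in opposite directions with the Cdk8 hairpins on day 13. Its day 13 ratios were -2.66, -2.71 and -2.69 in shNTC, -2.48, -2.34 and -2.27 in shCdk8-1, -3.06, -3.05 and -3.08 in shCdk8-2, -2.58, -2.52 and -2.50 in shMed12-1, and -2.03, -2.01 and -2.04 in shMed12-2. It rose by 0.33 with shCdk8-1 (adjusted p = 0.000618, limma) and fell by 0.37 with shCdk8-2 (adjusted p = 0.000201), and no day 13 knockdown group overlapped shNTC. On day 8 it rose by 0.25 with shCdk8-1. It rose by 0.67 with shMed12-2, and the shMed12-1 change of 0.16 was not called (adjusted p = 0.0528). The difference between the Cdk8 hairpins was 0.70 (95% interval 0.58 to 0.82), and 0.69 with the slide as a block.

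Stard4, a sterol transfer protein, fell with shCdk8-2 by 0.41 (day 8) and 0.39 (day 13), had changes of 0.03 and 0.20 with shCdk8-1 without a call, and rose by 0.29 with shMed12-2 (adjusted p = 0.0199, limma). Its probes disagree in part: with shCdk8-2 on day 13 the further probes gave -0.02 and -0.15 without a call, and with shMed12-1 they gave 0.32 (called) and 0.22 where the brightest gave -0.14. With shMed12-2 the further probes gave 0.41 and 0.38, both called. With shCdk8-2 on day 8 they gave -0.27 and -0.39, the second called. The first further probe was thus called higher with both Med12 hairpins. Dhcr7, the last reductase of cholesterol synthesis, rose with shCdk8-1 by 0.23 and 0.21 and with shMed12-2 by 0.38. A second Dhcr7 probe gave 0.23 (adjusted p = 0.05), 0.10 (0.47) and 0.33 (0.00433, limma). Tm7sf2, a sterol reductase, went another way: it rose by 0.54 with shCdk8-2 on day 8 and fell by 0.55 with shMed12-1. Nsdhl, a sterol dehydrogenase, rose by 0.26 with shCdk8-2 on day 8 and by 0.38 with shMed12-2, where its further probes gave 0.17 and 0.32 (neither called) and 0.32 (called) and 0.29. Within a day, the hairpins of a target never shared a slide, and neither shCdk8-1 nor shMed12-1 shared one with shNTC. The block for slide left 2, 9 and 10 of the 38 genes different between hairpins (against 2.69%, 5.61% and 6.19% of all genes), and all of the 14, 14 and 19 kept their direction. Cdk8 itself fell by 0.71 and by 0.95 with shCdk8-1, and fell by 0.31 and by 0.64 with shCdk8-2. Med12 itself fell by 1.0 with shMed12-1 and by 0.88 with shMed12-2. The part of these falls in the differences was not tested.

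**Figure D3:**
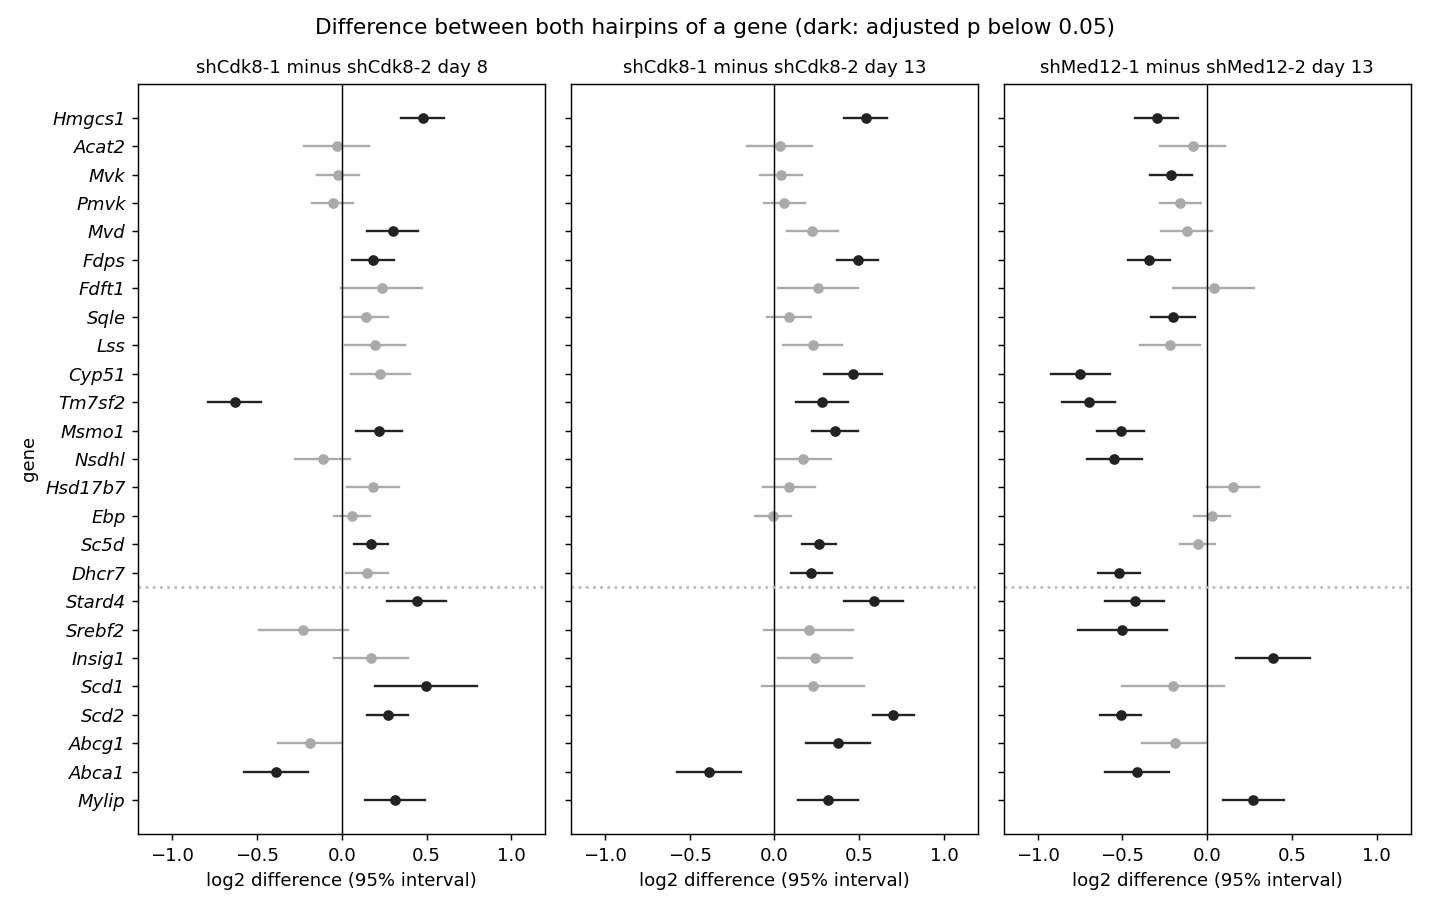
Difference of log2 ratio between both hairpins of a target (horizontal axis, hairpin 1 minus hairpin 2, with 95% intervals) for the 17 sterol enzymes and, under the dotted line, 8 other genes, in dark where the adjusted p was under 0.05. In the day 13 panels, the called sterol enzymes lie right of 0 for Cdk8 and left of 0 for Med12.

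Among the remaining sterol enzymes, Pmvk, phosphomevalonate kinase, rose by 0.28 with shMed12-2 alone. Acat2, acetoacetyl-CoA thiolase, fell by 0.29 with shCdk8-1 on day 8, and the shCdk8-2 value of -0.26 was not called. Hsd17b7, a keto-sterol reductase, fell by 0.34 and by 0.25 with shCdk8-2 on day 8 and day 13, where a second probe gave -0.03 and -0.14 without a call. With the brightest probe, no hairpin gave a call for Mvk, Mvd, Fdft1, Lss or Ebp, whose changes ran from -0.21 (Lss with shCdk8-2) to 0.29 (Fdft1 with shCdk8-1 on day 13). A second Lss probe gave -0.37 with shCdk8-2 on day 8 and was called (adjusted p = 0.00164, limma).

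Of the sensing genes, Insig1 rose by 0.44 with shCdk8-1 on day 8 and fell by 0.43 with shMed12-2. Its second probe gave 0.22 (adjusted p = 0.223) and 0.10 (adjusted p = 0.644, limma), so the probes disagree. Insig2 fell by 0.23 and by 0.26 with shCdk8-1 on day 8 and day 13, where a second probe gave -0.17 and -0.07. Scap rose by 0.20 with shCdk8-2 on day 13 and by 0.33 with shMed12-1. Srebf1 and Srebf2, the SREBP genes themselves, had no call with any single hairpin, with changes from -0.20 (Srebf2 with shMed12-1) to 0.30 (Srebf2 with shMed12-2). The mean over both Med12 hairpins was called for Srebf1 in the fit of all probes (0.14, adjusted p = 0.0294, limma).

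Among fatty acid genes, Me1, malic enzyme, which supplies NADPH, rose with both Med12 hairpins. Its day 13 ratios were -2.91, -2.87 and -2.85 in shNTC, -2.68, -2.72 and -2.77 in shCdk8-1, -2.87, -2.78 and -2.80 in shCdk8-2, -2.48, -2.50 and -2.18 in shMed12-1, and -2.38, -2.50 and -2.40 in shMed12-2. The Med12 arrays did not overlap the others. The changes were 0.49 and 0.45 (1.40-fold and 1.36-fold, adjusted p 0.00255 and 0.00628, limma), and with the slide as a block the shMed12-1 change of 0.54 was not called (adjusted p = 0.0864). On day 8 Me1 rose by 0.40 with shCdk8-1.

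Scd1, another stearoyl-CoA desaturase, had day 13 ratios of -2.61, -2.50 and -2.60 in shNTC, -2.37, -2.63 and -2.47 in shCdk8-1, -2.81, -2.77 and -2.58 in shCdk8-2, -2.55, -2.54 and -1.76 in shMed12-1, and -2.04, -2.14 and -2.07 in shMed12-2. Its shMed12-2 arrays lay above shNTC (a rise of 0.49), and shMed12-1 replicate 3, an array of compressed ratios, stood apart from the other two of its group. Fads2, a fatty acid desaturase, rose with shCdk8-1 by 0.26 on day 8 and by 0.27 on day 13, and with shMed12-2 by 0.22. Elovl6, a fatty acid elongase, fell by 0.23 with shMed12-2, and Acly, ATP citrate lyase, fell by 0.31 with shMed12-1. With the brightest probe, no hairpin gave a call for Fasn, fatty acid synthase, for Acaca, acetyl-CoA carboxylase, or for Fads1 and Acss2, with changes from -0.21 (Acss2) to 0.32 (Fasn with shCdk8-2 on day 13). A second Fasn probe was called with shCdk8-1 on day 8 (0.37, adjusted p = 0.00345) and day 13 (0.26, adjusted p = 0.0422), and a second Acss2 probe with shCdk8-2 on day 8 (0.26, adjusted p = 0.0408, limma). The mean over both Cdk8 hairpins on day 13 was called for both Fasn probes in the fit of all probes. It was 0.31 for the brightest and 0.25 for the second (adjusted p 0.0268 and 0.0227, limma).

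The LXR genes did not move together. Abcg1, a sterol exporter of the cell membrane, fell with every hairpin on day 13. On day 8 its ratios were -0.81, -0.86 and -0.75 in shNTC, -0.90, -1.23 and -1.0 in shCdk8-1 and -0.89, -0.85 and -0.82 in shCdk8-2. On day 13 they were -0.47, -0.48 and -0.55 in shNTC, -0.88, -1.08 and -1.11 in shCdk8-1, -1.33, -1.49 and -1.38 in shCdk8-2, -1.54, -1.62 and -1.22 in shMed12-1, and -1.30, -1.22 and -1.28 in shMed12-2. All 12 day 13 knockdown arrays lay below shNTC. It fell by 0.52 and by 0.90 with shCdk8-1 and shCdk8-2 and by 0.96 and by 0.76 with shMed12-1 and shMed12-2, to between 0.515-fold and 0.696-fold of shNTC, with adjusted p (limma) from 1.66e-07 to 0.00051. With the slide as a block the mean changes were -0.66 (Cdk8) and -0.82 (Med12). The Cdk8 change on day 13 minus that on day 8 was -0.56 ± 0.11 (SE, adjusted p = 0.00685, limma), and -0.58 with the slide as a block (adjusted p = 0.0194). On day 8 the change was -0.24 with shCdk8-1 and -0.05 with shCdk8-2, so the days differed more with shCdk8-2. The shCdk8-1 ratios of day 13 overlapped those of day 8, and the shCdk8-2 ratios of day 13 lay below those of day 8. All shNTC ratios of day 13 lay above those of day 8, so the difference between days includes the rise of shNTC. Within single slides, shCdk8-2 minus shNTC on day 13 was -0.91, and shMed12-2 minus shNTC was -0.82 and -0.67.

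Abca1, the cholesterol efflux transporter of the same family, did not follow Abcg1. Its day 13 ratios were -0.70, -0.62 and -0.58 in shNTC, -0.42, -0.52 and -0.54 in shCdk8-1, -0.03, -0.11 and -0.19 in shCdk8-2, -1.24, -0.97 and -0.91 in shMed12-1, and -0.65, -0.72 and -0.52 in shMed12-2. On day 8 they were -0.21, -0.11 and -0.10 in shNTC, -0.11, -0.14 and 0.07 in shCdk8-1, and 0.50, 0.14 and 0.35 in shCdk8-2. The shCdk8-2 arrays were the highest of each day and the shMed12-1 arrays the lowest of day 13. It rose by 0.47 and 0.52 with shCdk8-2, and fell by 0.41 with shMed12-1, while the shMed12-2 value was 0.01 (not called).

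Mylip, an E3 ligase that degrades lipoprotein receptors, had day 13 ratios of -1.31, -1.47 and -1.44 in shNTC, -0.79, -0.96 and -0.84 in shCdk8-1, -1.07, -1.14 and -1.34 in shCdk8-2, -0.91, -0.75 and -0.57 in shMed12-1, and -0.98, -0.96 and -1.11 in shMed12-2. The Med12 and shCdk8-1 arrays lay above all shNTC arrays. It rose by 0.66 and 0.39 with the Med12 hairpins (adjusted p 8.13e-06 and 0.00246, limma) and by 0.47 and 0.54 with shCdk8-1. A second Mylip probe was not well above background on any array.

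Nr1h2, which encodes LXR beta, had day 8 ratios of -0.22, -0.26 and -0.25 in shNTC, 0.01, -0.09 and -0.07 in shCdk8-1, and 0.00, -0.06 and 0.09 in shCdk8-2. The knockdown arrays lay above shNTC, with changes of 0.20 and 0.26, but the adjusted p of shCdk8-1 was 0.0494 (limma) and the call was lost without any 1 of the 9 day 8 arrays but shCdk8-2 replicate 2 (mean change 0.21 to 0.24). The refitted background (0.22, adjusted p = 0.0524) and the slide as a block (0.20, adjusted p = 0.461) also ended it. Of 25 alternatives, 7 kept the call. Nr1h3, which encodes LXR alpha, had no call with any hairpin.

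**Figure D4:**
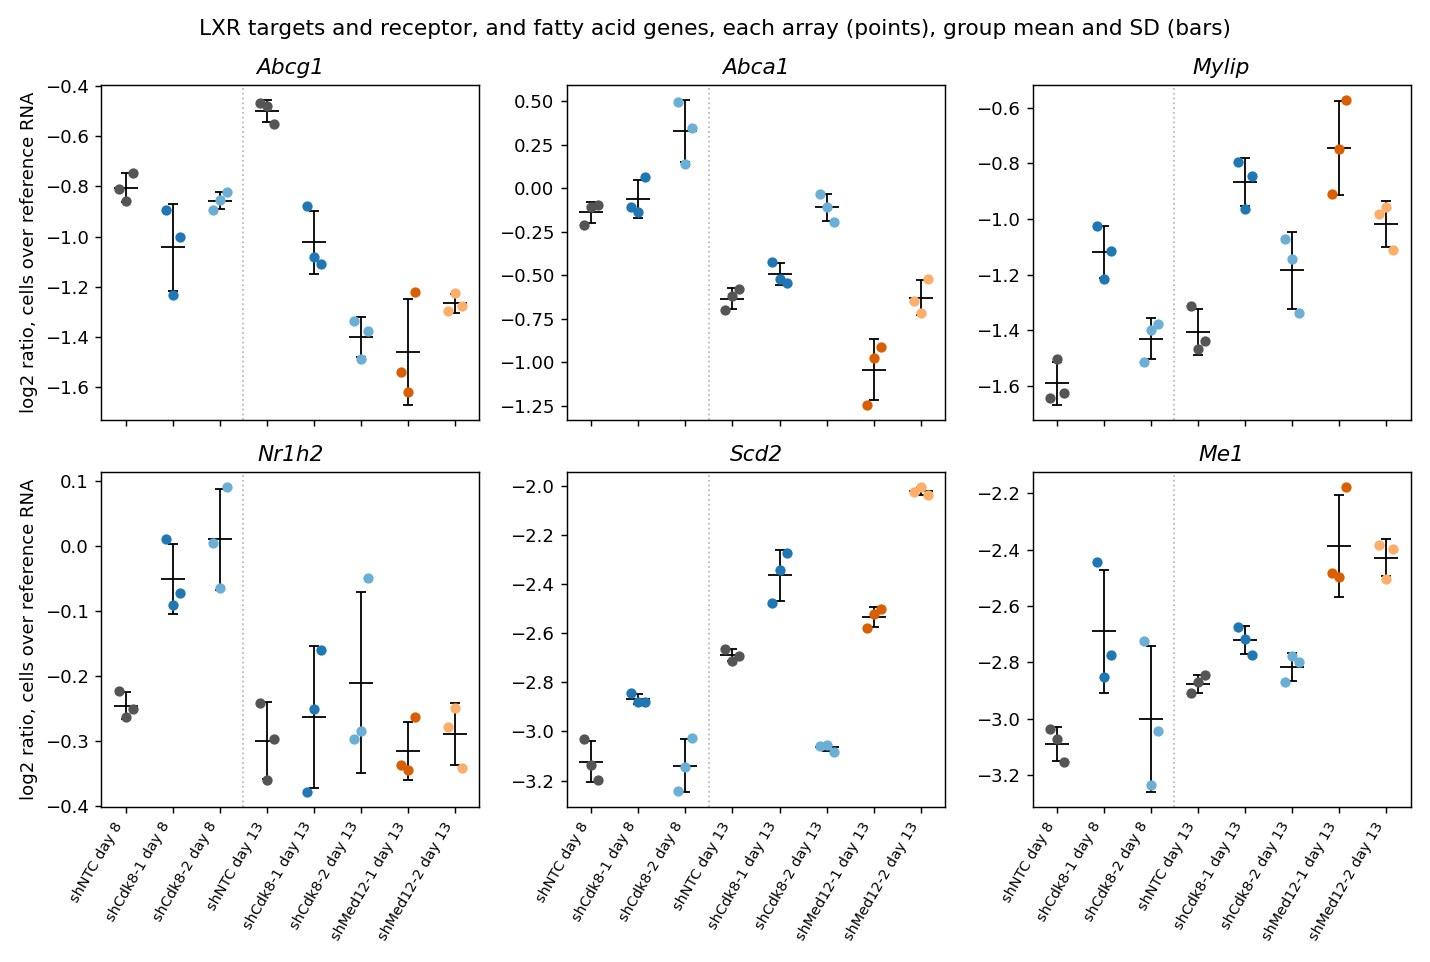
Log2 ratio of cells over reference RNA (vertical axis, a separate scale for each gene) on every array (points) of the 8 groups (horizontal axis), with group mean and SD as bars, for 4 LXR pathway genes, Scd2 and Me1. Abcg1 is below shNTC in all 4 knockdown groups of day 13, Abca1 is highest in shCdk8-2, and on day 13 Scd2 is above shNTC with shCdk8-1 and below it with shCdk8-2.

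Cdk8 and Med12 knockdown were compared directly on day 13 over both hairpins of each. Of the 38 genes, 5 were higher with Cdk8 knockdown and 8 with Med12 knockdown (34.2%, against 18.2% of all genes, or 8.5% higher with Cdk8 knockdown and 9.69% with Med12 knockdown). Abca1 was higher with Cdk8 knockdown by 0.53, Acly by 0.32, Insig1 by 0.28, Elovl6 by 0.19 and Tm7sf2 by 0.17. Cdk8 minus Med12 was -0.44 for Scd2, -0.42 for Scd1, -0.36 for Me1, -0.28 for Sc5d, -0.23 for Hsd17b7, -0.22 for Lss and Pmvk, and -0.13 for Msmo1. The Cdk8 and Med12 arrays did not overlap for Sc5d, Me1 and Pmvk, and overlapped for the other 10. Overlap was not counted over all genes, so this describes these genes alone. Acly ratios on day 13 were 0.33, 0.39 and 0.27 in shNTC, 0.60, 0.36 and 0.52 in shCdk8-1, 0.35, 0.59 and 0.53 in shCdk8-2, -0.05, 0.07 and 0.04 in shMed12-1, and 0.37, 0.27 and 0.37 in shMed12-2, so that shMed12-1 stood lowest. Insig1 ratios were -0.99, -1.12 and -1.14 in shNTC, -0.88, -0.97 and -0.88 in shCdk8-1, -1.11, -1.26 and -1.08 in shCdk8-2, -1.34, -1.22 and -0.80 in shMed12-1, and -1.55, -1.36 and -1.62 in shMed12-2, the lowest group. Hsd17b7 ratios were -0.80, -0.75 and -0.76 in shNTC, -0.91, -0.90 and -0.99 in shCdk8-1, -1.07, -1.05 and -0.95 in shCdk8-2, -0.71, -0.81 and -0.49 in shMed12-1, and -0.73, -0.94 and -0.80 in shMed12-2, and all Cdk8 arrays lay below shNTC. The mean of both Insig1 probes gave 0.13 (adjusted p = 0.206, limma), and the Msmo1 difference was lost without any 1 of 11 of the 12 arrays (-0.15 to -0.11, adjusted p from 0.0545 to 0.136).

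In shNTC cells, 11 of the 38 genes were higher on day 13 than on day 8 and 3 were lower (36.8%, against 17.6% of all genes, or 8.57% higher and 9.01% lower). Dhcr7 rose by 0.45, from -0.13, -0.17 and -0.20 to 0.25, 0.38 and 0.22, and Scd2 rose by 0.43. Srebf2 rose by 0.44, from -1.13, -1.29 and -1.28 to -0.79, -0.81 and -0.79, and Abcg1 by 0.30. Sterol enzymes Msmo1 (0.25), Pmvk (0.24), Fdps (0.24) and Sc5d (0.18) were also higher, as were Insig2, Fads2 and Nr1h3. Abca1 fell by 0.50, Hsd17b7 by 0.30 and Elovl6 by 0.21. Over the same days the primitive endoderm list went from mean ratios of -0.37 to -0.31 to ratios of -1.21 to -1.12 in shNTC arrays, and its part in these changes was not tested. In the genes named with values, the 3 arrays of one day did not overlap those of the other. These genes were picked by their call in this contrast, and overlap was not counted over all genes. The lack of overlap therefore adds nothing to the calls. The calls of Abcg1 (without shNTC day 8 replicate 1 or 2 or day 13 replicate 1 or 2, 0.28 to 0.30) and of Srebf2 (without shNTC day 8 replicate 2 or 3 or day 13 replicate 1 or 3, 0.41 to 0.44) were lost without those single arrays. Those of Sc5d (without shNTC day 8 replicate 1 or 3 or day 13 replicate 3, 0.14 to 0.17) and Msmo1 (without shNTC day 8 replicate 3, 0.23) were lost likewise. With the slide as a block the Srebf2 change of 0.31 was not called (adjusted p = 0.15). The mean of both Hsd17b7 probes gave -0.13 (adjusted p = 0.296, limma). All shNTC day 8 arrays lay at place 1 on their slides and the shNTC day 13 arrays at place 2 or 3. Place and day therefore cannot be told apart in this contrast, and the block for slide does not adjust for place. The shNTC day 13 arrays are also the controls of the day 13 comparisons.

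A further list of 59 pathway genes, of which 58 were measured, was read for the rest of the pathway. With both Cdk8 hairpins on day 8, 4 rose and 4 fell (13.8%, against 5.1% of all genes). They were Mid1ip1, an activator of acetyl-CoA carboxylase (0.51), Acsl4, a fatty acyl-CoA ligase (0.45), Pltp, a phospholipid transfer protein (0.31), and Sec23a, a coat protein of the vesicles that leave the endoplasmic reticulum (0.25), against Dgat2 (-0.29) and Gpam (-0.28), enzymes of triglyceride synthesis, Nus1 (-0.24) and Mlx (-0.23). On day 13, 4 rose and 3 fell (12.1%, against 4.22% of all genes). Those that rose included Acsl4 (0.39), Arl4c, an LXR target (0.38), and Soat1, the cholesterol esterifying enzyme (0.38), against Acsl1 (-0.49), Fntb (-0.29) and Mlx (-0.21).

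With both Med12 hairpins, 10 of the 58 rose and 2 fell (20.7%, against 8.61% of all genes). Arl4c rose by 1.05 and 1.17 with shMed12-1 and shMed12-2 (adjusted p 1.31e-11 and 3.33e-12, limma), and Soat1 rose by 0.83 and 0.85. Others that rose, with their mean change, were Acsl4 (0.45), Elovl1, a fatty acid elongase (0.43), Agpat3, an acyltransferase (0.41), Acsl3 (0.39) and Erg28, a scaffold of sterol demethylation (0.29). The 2 falls, named after their values were seen, were those of Ggps1 (-0.23), geranylgeranyl diphosphate synthase, and Lpcat3 (-0.17), a phospholipid acyltransferase.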

How the data were processed

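Arrays were scanned and spots quantified by the authors with Agilent Feature Extraction 10.7, per the submitters' processing notes. The deposited scanner files hold, per the file headers, intensities of spots and their local background and the log10 ratio (Cy5 over Cy3) that Feature Extraction computed. A value table deposited by the authors gives log2 ratios, which had a slope of 1 on that log ratio on every array. Scale and direction of the table follow from this match.

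From median intensities, normexp background correction (offset 50) and loess within each array gave log2 ratios (limma 3.58.1, R 4.3.3). Control spots and outlier flags had weight 0 in the loess. A probe was kept if its Cy5 signal was well above background on each of the 3 arrays in some group (28231 of 41174), and the brightest probe stood for a gene. Probes were named through their accessions in a RefSeq gene table. One limma fit, with 8 group means and 16 residual degrees of freedom, gave moderated two-sided tests, with Benjamini-Hochberg adjustment over 22387 genes and calls at an adjusted p under 0.05. The script was tested on simulated data. Of 45018 spots, 1639 were controls and none was saturated. The number of arrays limits the precision.

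Groups came from the labels. The replicate numbers did not pair the samples: 2 of 18 pairs of same-numbered arrays had a correlation of deviations over 0.1 (range -0.118 to 0.21). Arrays lay on 8 slides, and the slide was tried as a block, beside other background corrections, normalizations, filters, probe rules and tests, and each array left out. The refitted background leaves out the lowest 0.01% of spots from the normexp fit and was chosen after seeing the data. Members and lists were chosen with earlier results of these data known. Values on every array are given for members called with both hairpins and for up to 12 called in the other contrasts by size. Up to 8 genes of the further list are named per comparison, besides those that fell with Med12 knockdown. Some genes of these pathways are not reported here.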

Additional observations from a re-analysis of the deposited data

Results flagged for a closer look

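The Cdk8 effect differed between days for Sc5d, by 0.27 on the log2 scale (day 13 minus day 8, adjusted p = 0.0153, limma), with mean changes of -0.02 on day 8 and 0.26 on day 13. It differed for Abcg1 by -0.56 (adjusted p = 0.00685, limma), with mean changes of -0.15 and -0.71. The Abcg1 change was -0.24 on day 8 and -0.52 on day 13 with shCdk8-1, and -0.05 and -0.90 with shCdk8-2. In shNTC cells Abcg1 also rose between days, a call that was lost without single arrays. That rise is part of the Abcg1 difference, as each day is read against its own shNTC. The Abcg1 ratios of shCdk8-1 cells overlapped between days. Both genes were picked out because the difference between days was itself tested and called.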

How the results depend on the processing

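Over 31 results on single genes and their alternatives, 796 checks were made: 699 kept direction and call, 97 lost the call and none reversed. Median centring in place of loess ended 26 of the 31 calls. It moved the median change of all genes to between -0.075 and 0.119. It gave 0, 0 and 1 members called with both hairpins (Cdk8 day 8, Cdk8 day 13, Med12), against 90, 49 and 389 of all genes, with 0 for the difference between days, 2 for Cdk8 minus Med12, 2 for shNTC over time, and 2, 1 and 2 for the hairpin differences. For Cdk8 on day 8, members called were 5 (4 higher, 1 lower) with Cy5 alone, 6 (5 and 1) with the Feature Extraction log ratio, 7 (6 and 1) with the authors' table, 1 with no filter, 1 with the slide as a fixed block, 1 with only the groups compared, 5 without both compressed arrays and 7 with the refitted background. All genes were then 1881, 1899, 310, 497 and 1738 (Feature Extraction, authors' table, slide, only groups compared, refitted), against 1142. For Cdk8 on day 13, members were 7 (Feature Extraction), 7 (authors' table), 5 (without both compressed arrays) and 5 (refitted), and all genes 1831 (835 higher, 996 lower), 1840 (839 and 1001), 1523 and 1567, with 279 under the slide block, against 945 (531 and 414). Cy5 alone gave 484 higher and 690 lower there and 886 and 1232 for Med12, where Feature Extraction gave 1227 and 1471, the authors' table gave 1238 and 1483, and the slide block 708 in all, against 1927 (1072 and 855). Members split 1 higher and 2 lower with Cy5 alone on day 13, and for Med12 5 and 3 (Cy5), 6 and 3 (Feature Extraction) and 6 and 3 (authors' table). Cdk8 minus Med12 split 8 and 7 with Cy5 alone, and the hairpin differences 9 and 5 (Cdk8 day 8) and 2 and 18 (Med12), with 13 and 6 on day 8 for both other scalings. The slide block gave 1 member for the difference between days, 9 for shNTC over time and 2, 9 and 10 for the hairpin differences, and only the groups compared gave 3 for the first of these. The cause of these shifts was not tested.

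Leaving out 1 array at a time gave 1 to 5 members and 754 to 1187 genes (Cdk8 day 8), 2 to 4 and 570 to 857 (Cdk8 day 13), 6 to 7 and 1328 to 1841 (Med12), 1 to 2 for the difference between days, 11 to 14 for Cdk8 minus Med12, 7 to 10 for shNTC over time, and 9 to 15, 11 to 14 and 16 to 19 for the hairpin differences. The replicate block gave 3, 2 and 7 members and 1117, 918 and 1889 genes, and changed none of the 31 single-gene calls. Where under 3 arrays remained in a group, the fit assumed that they vary like the other groups.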
